A study of Mus musculus with 8 samples.

Results

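The mitochondrial genome encodes 13 proteins of the respiratory chain, and the 6 described here are the ones that belong to complexes III, IV and V. They are mt-Cytb of complex III, mt-Co1, mt-Co2 and mt-Co3 of complex IV, and mt-Atp6 and mt-Atp8 of complex V. Members were chosen by symbol, which gave 6 of the 55416 rows of the count table and 6 of its 37 mitochondrial rows. The liver of 8 mice was sequenced as poly-A RNA, 4 of genotype Sost-/- and 4 of genotype SostPB/-, with the libraries labelled as biological replicates. All 8 were fed the MCD diet, which in this field means a diet without methionine and choline, and all carry at least 1 Sost- allele. Sost encodes sclerostin, a secreted antagonist of Wnt signals, and the study asks what its overexpression does to steatohepatitis. The labels do not explain PB, the cells or promoter behind it, or the age and sex of the mice, and they do not name the group that overexpresses Sost, so the genotypes are compared by name.

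Complex III hands electrons from ubiquinol to cytochrome c, and complex IV (cytochrome c oxidase) hands them on to oxygen. Both pump protons, and complex V (ATP synthase) lets the protons flow back to make ATP. Each complex joins subunits made inside mitochondria to subunits imported from the cytosol. The mitochondrial mRNAs are cut from long shared transcripts at the transfer RNAs that lie between them, and most receive a short poly-A tail, so poly-A capture retains them. Liver cells are rich in mitochondria, which carry out fatty acid oxidation and parts of urea and glucose synthesis.

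The names of mitochondrial rows can be checked against GENCODE M21, an annotation of the mm10 build that the submitters' notes name. Of 52083 rows with an ID in M21, 35 carried the same ID version, and these 35 were all mitochondrial. A higher version than in M21 was carried by 52046 rows, so the positions M21 gives may not be those that nuclear rows counted. The row of mt-Atp8 was 1 of 2 with a lower version than M21, so the gene model behind it was not checked. The 22 transfer RNA rows had mean counts of 6.0 to 7609.2 and the 13 mRNA rows of 25299.9 to 1991543.4. Nuclear rows could not be trusted by name. Of 8 hepatocyte marker rows 4 held 0 counts in all libraries, Alb (albumin) and Apoa1 had means of 43.8 and 4.25 counts, and Cps1 and Serpina1a of 1868.5 and 6840 counts. The row of Sost held 0 counts, which in 1 library leaves room for an expected count of up to about 3, if the row counts Sost at all. The labelled tissue could not be checked from such rows, and the nuclear subunits of these complexes are not analysed here. Libraries held 9578086 to 14932773 counts, with Sost-/- replicate 1 and SostPB/- replicate 2 the deepest. No label gives a batch.

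The 6 genes lie on the plus strand of the mitochondrial genome (mm10, written M here). mt-Co1 spans bases 5328 to 6872, mt-Co2 7013 to 7696, mt-Atp8 7766 to 7969, mt-Atp6 7927 to 8607, mt-Co3 8607 to 9390 and mt-Cytb 14145 to 15288. Each is a single exon whose annotated length is its coding length. Their lengths are 1545, 684, 204, 681, 784 and 1144 bases in that order. mt-Atp8 and mt-Atp6 share 43 bases, in different reading frames, and the shared stretch is shown because reads from it belong to both rows. The sequences, from the GENCODE M21 transcripts, run 5′ to 3′ with the shared bases in capitals, at M:7910-7969 and M:7927-7986.
mt-Atp8, last 60 bases: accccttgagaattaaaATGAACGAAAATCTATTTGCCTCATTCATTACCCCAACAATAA
mt-Atp6, first 60 bases: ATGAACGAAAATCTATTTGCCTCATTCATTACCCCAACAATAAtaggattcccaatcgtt
The overlap opens with the start codon of mt-Atp6 and closes with the stop codon of mt-Atp8. The strand setting and the rule for reads in an overlap are unknown here, so counts from these 43 bases, of the 204 of mt-Atp8, cannot be assigned to 1 gene, and mt-Atp6 shares a further 1 base with mt-Co3.

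The ends of mt-Co3 and mt-Cytb are shown because neither gene encodes a whole stop codon. In the next lines the encoded part of the stop codon is in capitals, at M:6843-6872, M:9361-9390 and M:15259-15288, and mt-Co1 is given for comparison.
mt-Co1, last 30 bases: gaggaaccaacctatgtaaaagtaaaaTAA
mt-Co3, last 30 bases: tatacgtctccatttattgatgaggatctT
mt-Cytb, last 30 bases: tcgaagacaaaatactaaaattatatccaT
mt-Co3 and mt-Cytb end on a single T, which the poly-A tail completes to a stop codon in mammalian mitochondria. The annotation thus ends these 2 genes where the tail that the library kit captures begins.

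Copies of mitochondrial DNA in the nuclear genome bear on these rows. A BLAST search of the 6 sequences against all M21 transcripts found copies of mt-Co2 (Gm28661), mt-Atp6 (Gm10925) and mt-Co3 (Gm28437) on chromosome 1 that were 100% identical over 681, 678 and 783 bases. Gm29216, beside them, matched the last 483 bases of mt-Co1 with 1 mismatch. These pseudogenes lie side by side on the minus strand between 24613189 and 24616197. A second copy of mt-Co2, Gm13341 on chromosome 2, was 95.906% identical, and the closest copy of mt-Cytb (Gm11410, chromosome 4) was 92.907% identical. mt-Atp8 had no match at the limit of the search (E of 1e-20), but an exact comparison found the 43 bases it shares with mt-Atp6 at the start of Gm10925. The start of mt-Co2 and of its 2 copies is shown because reads from it cannot be placed between M:7013-7072 and chr1:24615506-24615565, while chr2:22587903-22587962 differs at the bases in capitals.
mt-Co2: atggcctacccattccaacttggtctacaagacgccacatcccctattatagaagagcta
Gm28661: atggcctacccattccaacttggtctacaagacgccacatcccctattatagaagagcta
Gm13341: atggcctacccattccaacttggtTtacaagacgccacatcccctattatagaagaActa
All of these pseudogene rows held 0 counts over the 8 libraries. They are nuclear rows, which could not be trusted by name, so 0 counts do not show that no reads went to the copies. The row named Col19a1, a collagen gene that M21 places 25.7 kb from the nearest of these copies on the same strand, held 1.06% ± 0.0679 of all counts in Sost-/- and 1.28% ± 0.197 in SostPB/- (SD, n = 4). The sources used here do not say how reads that match both places were counted. The values of mt-Co1, mt-Co2, mt-Atp8, mt-Atp6 and mt-Co3 are therefore uncertain by whatever share of their reads went elsewhere, and what the Col19a1 row counts was not tested. The distance of 25.7 kb is that of M21, and the gene model behind the Col19a1 row may have other bounds.

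Levels of different genes were compared per length, as CPM per kilobase, where CPM is the count scaled to the library's total. They are levels of RNA captured by poly-A, for the rRNAs too, and carry the uncertainty from nuclear copies given above. mt-Co1, the catalytic core of cytochrome oxidase, stood first of the 13 mRNAs and 2 rRNAs, at 114000.0 ± 2752 in Sost-/- and 113300.0 ± 4322 in SostPB/- (SD, n = 4). mt-Atp8, a small membrane subunit of ATP synthase, came second at 92955 ± 14174 and 106700.0 ± 18847, and its row includes reads of the stretch shared with mt-Atp6. In SostPB/- the ranges of these 2 overlapped, and mt-Co1 was the higher in 2 of 4 libraries. mt-Atp8 and mt-Atp6 share an mRNA in mammals, so their difference per length cannot be read as a difference between mRNAs. The part of the short length of mt-Atp8, 204 bases, in its value was not tested.

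mt-Atp6, the subunit that forms the proton path of ATP synthase, had 57094 ± 4719 and 67151 ± 7268 CPM per kilobase. mt-Co2, which carries the copper centre that takes electrons from cytochrome c, had 45496 ± 18349 and 75272 ± 8907. The order of mt-Atp6 and mt-Co2 by the mean was opposite in the 2 groups, but their ranges overlapped in each. mt-Cytb, the haem-bearing core of complex III, followed at 38185 ± 3707 and 45249 ± 3550. In Sost-/- its range overlapped that of mt-Co2, which was the higher in 3 of 4 libraries. mt-Co3, a structural core subunit of cytochrome oxidase, was last of the 6 in both groups, at 30411 ± 2288 and 33684 ± 1239, and did not overlap mt-Cytb. Per length mt-Co3 thus stood more than 3 times below mt-Co1 of the same complex.

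**Figure D1:**
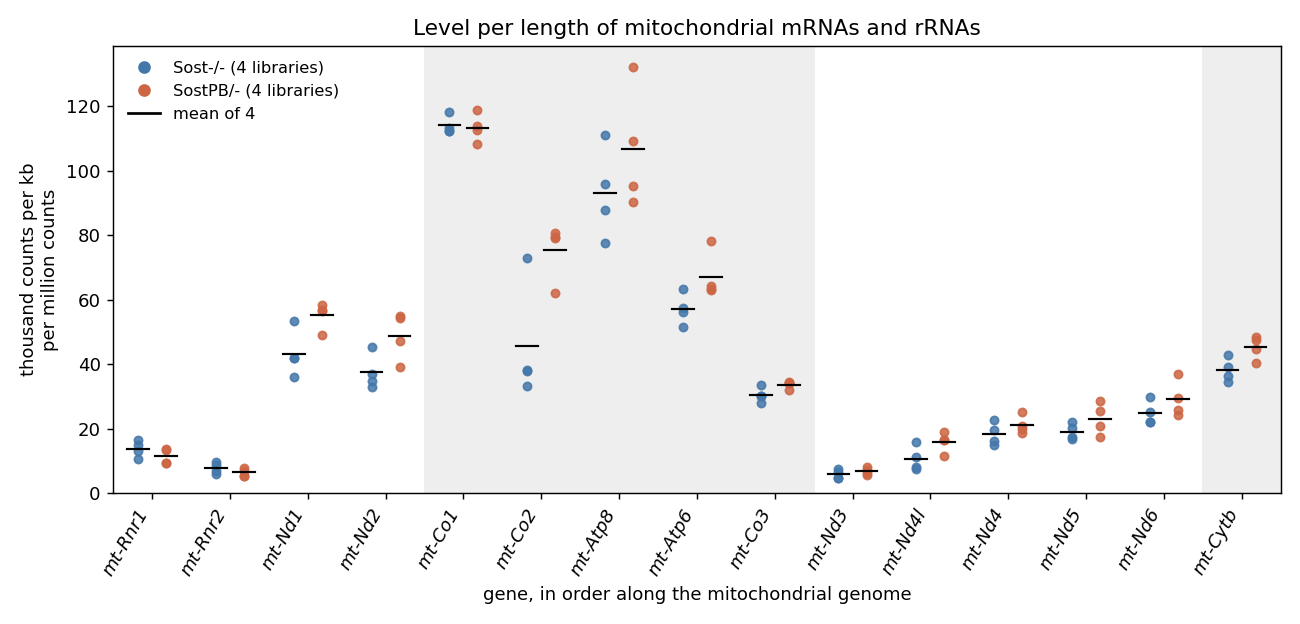
CPM per kilobase (axis scaled as labelled) for the 13 mitochondrial mRNAs and 2 rRNAs in gene order, with 1 point per library, a line at the mean of 4, and grey behind the 6 members. mt-Co1 is highest in both genotypes, and the mt-Co2 point of Sost-/- replicate 1 lies among the SostPB/- points.

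The comparison of SostPB/- with Sost-/- asks whether the genotypes differ in these mRNAs. From here on, CPM is TMM-scaled, which sets libraries to a common size from the bulk of the rows. None of the 6 passed an adjusted p of 0.05 in edgeR's quasi-likelihood test, and each had a higher mean in SostPB/-, by 1.13-fold for mt-Co1 to 1.82-fold for mt-Co2. In a bulk sample, fewer cells or mitochondria and less RNA in each cannot be told apart.

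In complex IV, mt-Co2 showed the largest difference of the 6. Replicates 1 to 4 of Sost-/- had 56062, 20822, 22783 and 22309 CPM, and those of SostPB/- had 41296, 58745, 65561 and 56965 CPM. All values below are in this order. Sost-/- replicate 1 was inside the SostPB/- range, and the other 3 Sost-/- libraries were below every SostPB/- library. The log2 fold change was 0.87 (SE 0.31), with edgeR's adjusted p at 0.693. Without Sost-/- replicate 1 it was 1.34 (SE 0.16), with an adjusted p of 0.0317 in edgeR; over the 8 fits that left out 1 library the adjusted p ran from 0.0317 to 0.999.

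mt-Co1 had 197100.0, 167298, 152926 and 148193 CPM in Sost-/- and 169700.0, 190024, 222093 and 172587 CPM in SostPB/-. The groups overlapped through Sost-/- replicate 1. The fitted difference was 0.18 on the log2 scale (SE 0.14; adjusted p = 0.945 in edgeR). mt-Co3 had 29537, 20078, 20884 and 20106 CPM in Sost-/- and 26101, 29211, 32574 and 25781 CPM in SostPB/-. Sost-/- replicate 1 was again the library above the others of its group. The fitted difference was 0.33 on the log2 scale (SE 0.16; adjusted p = 0.815 in edgeR).

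mt-Cytb, the member from complex III, had 55264, 41098, 34747 and 35359 CPM in Sost-/- and 49741, 59886, 65811 and 47864 CPM in SostPB/-. The difference was 0.42 on the log2 scale (SE 0.18; adjusted p = 0.748 in edgeR). The fold change of mt-Cytb lay between those of mt-Co3 and mt-Co2. The closest copy of mt-Cytb in the search was 92.907% identical, and what copies add to the values of any member was not tested.

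In complex V, mt-Atp6 had 48400, 35163, 34408 and 30021 CPM in Sost-/- and 42084, 46312, 64352 and 45247 CPM in SostPB/-. The difference was 0.42 on the log2 scale (SE 0.19; adjusted p = 0.771 in edgeR). mt-Atp8 had 25493, 17912, 15765 and 13484 CPM in Sost-/- and 17922, 21010, 32680 and 23010 CPM in SostPB/-. The difference was 0.38 on the log2 scale (SE 0.23; adjusted p = 0.907 in edgeR). Without SostPB/- replicate 3 the log2 difference was 0.18 for mt-Atp8, 0.27 for mt-Atp6 and 0.092 for mt-Co1, and without Sost-/- replicate 1 it was 0.59, 0.58 and 0.27. In both genes of complex V SostPB/- replicate 3 was the highest of all libraries and Sost-/- replicate 1 was the second highest. The same order held for mt-Co1 and mt-Co3 of complex IV. For mt-Co2 and mt-Cytb SostPB/- replicate 3 was also the highest, with SostPB/- replicate 2 second.

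**Figure D2:**
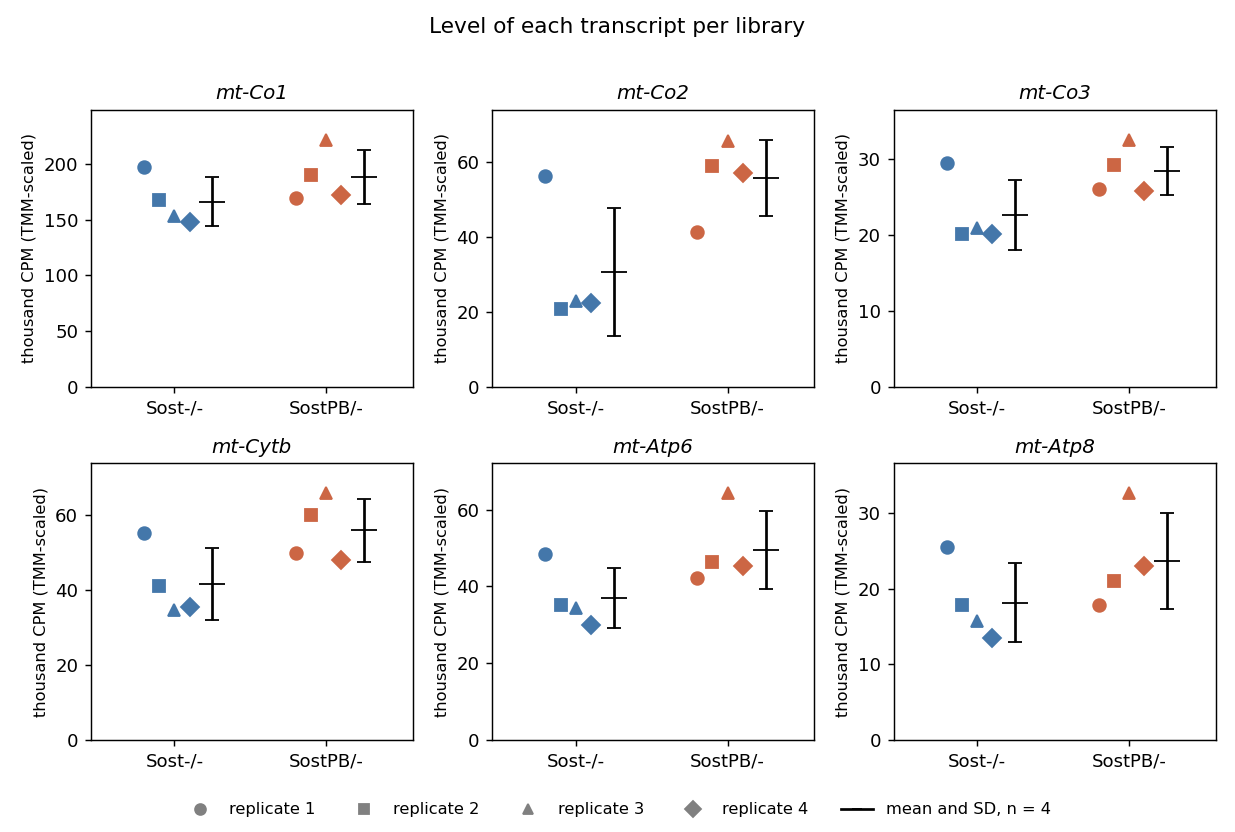
TMM-scaled CPM (axis scaled as labelled) of each member per library, with the mean and SD of 4 in black. Symbols mark replicate numbers, which the labels do not say pair the genotypes. In every panel Sost-/- replicate 1 (blue circle) lies above the other 3 Sost-/- libraries, for mt-Co2 at 56062 CPM against 20822 to 22783.

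Of the 6 members, 0 passed in edgeR's test, where 0% of the 10020 rows tested did. DESeq2 and limma-voom called 0 of the 6 as well, and 0.418% and 0.00998% of all rows (53 and 1). An unadjusted p under 0.05 was reached by 3 of 6 in edgeR (mt-Co2, mt-Cytb and mt-Atp6), all 3 higher in SostPB/-, against 6.45% of all rows in either direction and 2.98% in that direction. It was reached by 3 in DESeq2, against 6.39% of all rows, and by 4 in limma-voom, against 8.09%. The mean was higher in SostPB/- in 6 of 6 by the fitted log2 fold change, against 48.8% of all rows, and their median was 0.40 against -0.01 over all rows. The 6 rows are not independent of each other, since they come from the same organelle and from shared precursor transcripts. The share of mitochondrial counts in a library moves with them: Sost-/- libraries had 59.2%, 51.6%, 49.4% and 47.4%, and SostPB/- libraries 54.7%, 59.2%, 64.3% and 58.8%. Its part in these differences was not tested.

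In 0 of 6 members did the groups stand apart, where 3.92% of all rows did. With Sost-/- replicate 1 set aside, which was chosen after seeing the values, every SostPB/- library was above every other Sost-/- library in 6 of 6, against 4.5% of all rows. For mt-Atp8 that gap was 17912 to 17922 CPM.

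The other mitochondrial genes, listed for comparison, had the following values. For the 7 complex I subunits the log2 fold changes were 0.35 to 0.72 (median 0.46), and 0 of 7 passed in edgeR, with 3 at an unadjusted p under 0.05. mt-Nd4l had 0.72 (SE 0.32) and mt-Nd1 had 0.52 (SE 0.21). The rRNAs mt-Rnr1 and mt-Rnr2 had -0.12 (SE 0.22) and -0.14 (SE 0.22). Of 8 transfer RNA genes listed as near members, all next to one except mt-Tp, which lies beyond mt-Tt, 7 were tested, 5 had a positive value and 0 passed. mt-Ts1, which lies opposite the end of mt-Co1 and overlaps it by 3 bases, had 593 ± 70.3 CPM in Sost-/- and 770 ± 34.6 in SostPB/- (SD, n = 4) without overlap. The difference was 0.38 on the log2 scale (SE 0.14; adjusted p = 0.693 in edgeR).

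The size of these differences depended on what the counts were scaled to. With library totals in place of TMM, the median of all rows moved to -0.21, and the members were at -0.0097 (mt-Co1), 0.73 (mt-Co2), 0.15 (mt-Co3), 0.24 (mt-Cytb), 0.23 (mt-Atp6) and 0.20 (mt-Atp8). The sign of mt-Co1 was thus reversed, and relative to that median it was 0.20 above. Scaling on nuclear rows alone gave values of 0.19 to 0.88, with mt-Co1 again lowest and mt-Co2 highest. Adding the Col19a1 row to mt-Co2, an alternative chosen after seeing the data, gave 0.78 (SE 0.28, edgeR adjusted p = 0.687). The annotated pseudogene rows held 0 counts, so adding them could change nothing.

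**Figure D3:**
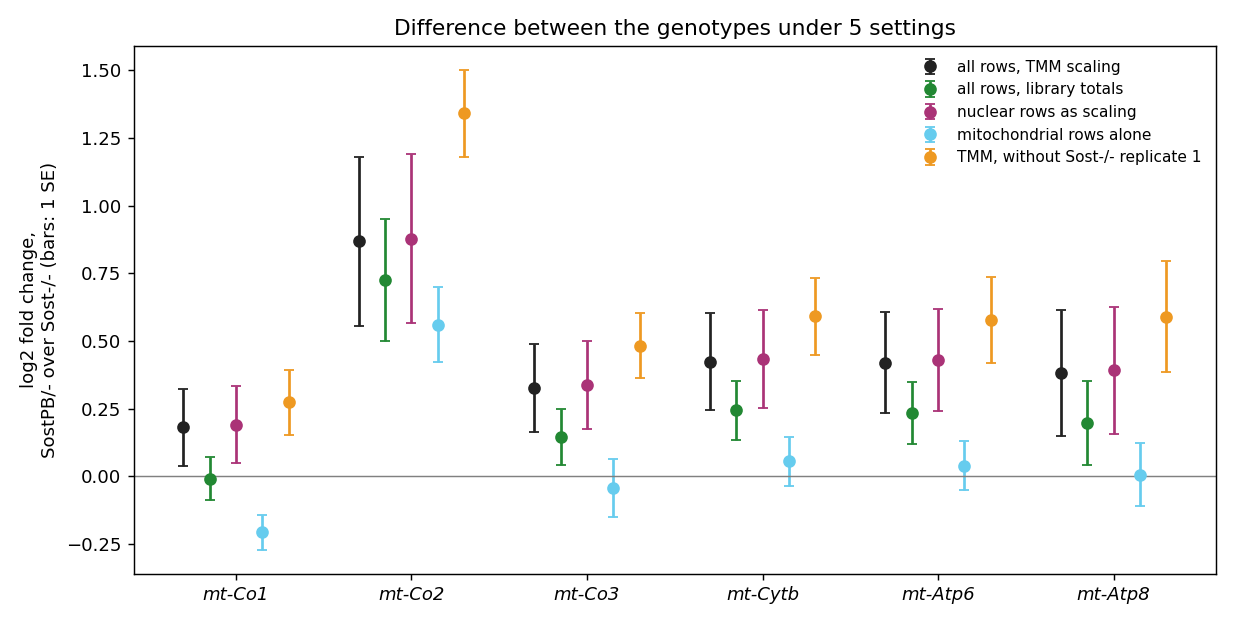
Log2 fold change of each member, SostPB/- over Sost-/-, with 1 SE, under 5 settings of edgeR. mt-Co2 is the highest under all 5, from 0.56 to 1.34, and the other 5 lie near 0 when the mitochondrial rows are scaled to their own sum, apart from mt-Co1 at -0.21.

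Shares of the mitochondrial counts gave another order of differences. Such a share does not depend on how much of the library is mitochondrial, although a higher share of 1 member lowers the others. The 6 together made up 64.2% ± 1.97 of mitochondrial counts in Sost-/- and 62.9% ± 1.67 in SostPB/- (SD, n = 4; p = 0.343, exact permutation, two-sided as in all such tests here). As a share of all counts they held 33.3% ± 2.29 and 37.2% ± 1.95 (exact permutation p = 0.0857), and p cannot go below 0.0286 with 4 libraries a group. mt-Co2 was also left out of the sum but kept in the totals. The difference in the share of all counts was then 1.92 percentage points in place of 3.96 (exact p = 0.143). That in the share of mitochondrial counts was -4.15 in place of -1.36 (exact p = 0.114), where the higher mt-Co2 itself lowers the rest. With mt-Co2 out of the mitochondrial total as well, the share of mt-Co1 differed by -3.86 percentage points. Those of mt-Co3, mt-Cytb, mt-Atp6 and mt-Atp8 differed by -0.0045, 0.63, 0.47 and 0.13. Complex IV members held 44.7% ± 1.96 and 42.8% ± 1.47 of mitochondrial counts (exact p = 0.2), complex V members 11.1% ± 0.313 and 11.4% ± 0.805 (exact p = 0.714), and mt-Cytb 8.42% ± 0.363 and 8.75% ± 0.716 (exact p = 0.457).

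The Sost-/- libraries had 29.6%, 35.4%, 35.1% and 36.6% of their mitochondrial counts in mt-Co1, and the SostPB/- libraries had 31.8%, 29.7%, 28.5% and 28.4%. Sost-/- replicate 1 was again within the SostPB/- range, and the other 3 were above it. The means were 34.2% ± 3.13 and 29.6% ± 1.58 (SD, n = 4; exact permutation test, p = 0.0857, adjusted p = 0.236 over the 33 mitochondrial rows whose mean count was 50 or more). mt-Co2 differed in the opposite direction. It held 8.41%, 4.40%, 5.22% and 5.51% in Sost-/- and 7.74%, 9.18%, 8.42% and 9.38% in SostPB/-, with means of 5.89% ± 1.75 and 8.68% ± 0.750 (exact permutation test, p = 0.0571, adjusted p = 0.236).

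The other 4 members differed less in share. mt-Atp6 held 7.50% ± 0.270 in Sost-/- and 7.71% ± 0.459 in SostPB/-, mt-Atp8 3.64% ± 0.225 and 3.66% ± 0.423, and mt-Co3 4.61% ± 0.329 and 4.47% ± 0.327 (SD, n = 4). Their exact permutation p values, with that of mt-Cytb, were 0.457 to 0.914. Of the 33 rows tested in this way, 2 (6.1%) had an exact p under 0.05, neither of them a member, and 0 passed after adjustment. A pass after adjustment would need many rows at the smallest possible exact p of 0.0286.

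When edgeR was fitted to the mitochondrial rows alone, with their sum as library size, mt-Co2 was higher in SostPB/- at a log2 fold change of 0.56 (SE 0.14, adjusted p = 0.0080 over 34 rows) and mt-Co1 was lower at -0.21 (SE 0.06, adjusted p = 0.0428). They were 2 of 3 rows that passed, and 8.82% of the 34 did. Both calls depended on the libraries in the fit: the adjusted p of mt-Co1 was above 0.05 in 6 of 8 fits that left out 1 library, and that of mt-Co2 in 3 of 8, without Sost-/- replicate 2 (0.0506) or SostPB/- replicate 2 (0.0755) or 3 (0.115). The exact test on the same shares passed neither, and its p before adjustment was already above 0.05 for both (0.0857 for mt-Co1 and 0.0571 for mt-Co2). With a smallest p of 0.0286 over 33 rows, a pass after adjustment was also hard to reach.

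**Figure D4:**
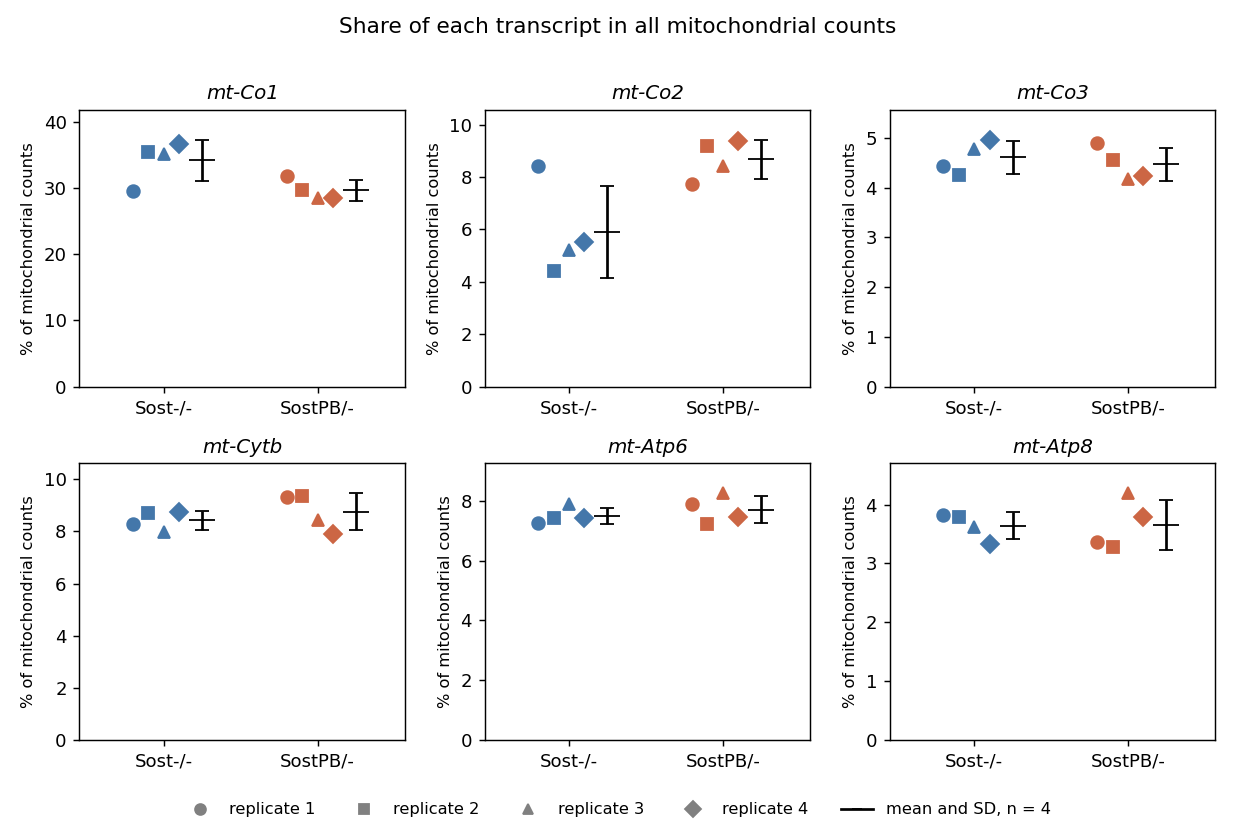
Share of each member in all mitochondrial counts per library, in percent, with the mean and SD of 4 in black. mt-Co1 is at 28.4% to 31.8% in SostPB/- and at 35.1% to 36.6% in 3 of 4 Sost-/- libraries, while mt-Co2 is at 7.74% to 9.38% and 4.40% to 5.51%; Sost-/- replicate 1 (blue circle) sits with SostPB/- in both.

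Ratios between 2 mRNAs of a library are free of any scaling. The log2 ratio of mt-Co1 over mt-Co2 was 1.81, 3.01, 2.75 and 2.73 in the Sost-/- libraries and 2.04, 1.69, 1.76 and 1.60 in the SostPB/- libraries. For each count of mt-Co2 there were thus 3.03 to 4.11 counts of mt-Co1 in SostPB/-, 3.52 in Sost-/- replicate 1 and 6.64 to 8.03 in the other 3 Sost-/- libraries. The means were 2.57 ± 0.52 and 1.77 ± 0.19 (SD, n = 4; exact permutation test, p = 0.0571, adjusted p = 0.352 over 78 pairs of the 13 mRNAs). mt-Co2 made up 19.8%, 10.001%, 11.6% and 11.7% of complex IV counts in Sost-/- and 17.4%, 21.1%, 20.5% and 22.3% in SostPB/-.

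The ratio within complex V varied less between libraries than that of mt-Co1 over mt-Co2. The log2 ratio of mt-Atp6 over mt-Atp8 was 1.04 ± 0.11 in Sost-/- and 1.08 ± 0.13 in SostPB/- (p = 0.6, exact permutation). These genes are carried on 1 shared mRNA in mammals, and reads from their overlap cannot be assigned to 1 of the rows. That of mt-Co3 over mt-Atp6, neighbours on the genome, was -0.70 ± 0.09 and -0.79 ± 0.15 (exact p = 0.457). The ratio of mt-Co1 over mt-Cytb was 2.02 ± 0.13 and 1.76 ± 0.08 (exact p = 0.0571), and that of mt-Co1 over mt-Co3 was 2.89 ± 0.13 and 2.73 ± 0.03 (exact p = 0.0857). Among 15 pairs of members, 0 had an exact p under 0.05, as in 0 of all 78 pairs. After adjustment over 78 pairs, a pair could pass only if many pairs reached the smallest exact p of 0.0286.

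The likeness of members was described by Pearson's r over the 8 libraries, against the 32 other mitochondrial rows whose mean count was 50 or more. The libraries of both genotypes enter these values, and all rows share depth and mitochondrial content. On log2 CPM the nearest rows were mt-Nd4 and mt-Atp6 for mt-Co1 (0.98 and 0.96), mt-Nd1 and mt-Co3 for mt-Co2 (0.96 and 0.96), mt-Cytb and mt-Co2 for mt-Co3 (0.96 and 0.96) and mt-Co3 and mt-Nd4l for mt-Cytb (0.96 and 0.95). mt-Atp6 was nearest to mt-Atp8 and mt-Nd6 (0.97 and 0.97), and mt-Atp8 to mt-Nd6 and mt-Nd4 (0.99 and 0.99).

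On the log2 share of mitochondrial counts, where the common mitochondrial content drops out, the values of the nearest rows were lower for every member. mt-Co2 was nearest to the transfer RNA row mt-Tw (0.90) and to mt-Nd1 (0.83), and mt-Atp8 to mt-Nd6 (0.92) and mt-Nd4 (0.85). mt-Co1 was nearest to mt-Tn (0.81) and mt-Tp (0.81), and mt-Co3 to mt-Ts1 (0.86) and mt-Tp (0.82). For mt-Cytb and mt-Atp6 no row went above 0.42. The row named Col19a1 had r = 0.76 with mt-Atp6 and 0.08 with mt-Co2 on this scale, and 0.99 and 0.88 on log2 CPM.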

How the data were processed

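The authors deposited whole-number counts per gene row for 8 liver libraries, 4 per genotype, each column named by a sample description. Per the labels' protocols, poly-A RNA was captured before library construction. HISAT2, StringTie and DESeq2 are listed without versions, beside the build mm10, per the submitters' processing notes. Strand use, annotation release and the handling of reads with several matches: not given in the sources used here. A second deposited table of normalized values was not used. Member counts ran from 156707 to 2614560 per library, so counting error was at most 0.253%. The labels call the replicates biological and say no more, and p-values measure the spread between these samples.

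edgeR 4.0.16 (R 4.3.3) was fitted to the counts of all rows (filterByExpr, TMM, glmQLFit, glmQLFTest, Benjamini-Hochberg over 10020 rows). The standard error is the log2 fold change over the square root of F. Shares and ratios were compared by exact two-sided permutation. DESeq2 1.42.0, limma 3.58.1 with voom, other scalings and left-out libraries were alternatives. Copies were sought with BLAST 2.17.0. Scripts were tested on simulated data. Named genes were the 6 members, up to 4 of each other mitochondrial group, near-identical copies, Col19a1, Sost, the 2 rows most like each member and, only where a row could be shown to count the gene it names, nuclear subunits. Some alternatives were chosen after seeing the data, as the closing section says. Members and lists were chosen with earlier results of these data known.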

Additional observations from a re-analysis of the deposited data

Results flagged for a closer look

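Each library was compared with the other 3 of its group by the gap to the nearest of them over the group's range, for the CPM and the mitochondrial share of each member, their summed shares and the log2 ratios between members. Of 58 sets of 4 values, which overlap in content, 3 held a value that stood out, where chance gives about 1 in 20. All 3 belong to Sost-/- replicate 1, the deepest library of its group. Its mt-Co2 was at 56062 CPM against 20822 to 22783 in the other 3, and its mt-Co3 at 29537 CPM against 20078 to 20884. Its log2 ratio of mt-Co2 over mt-Co3 was 0.92 against 0.05 to 0.15. The share of mitochondrial counts in that library was 59.2%, and 47.4% to 51.6% in the rest of the group; its part in these values was not tested. SostPB/- replicate 2, of similar depth, did not stand out in any set. Each set compares libraries within 1 group only, and the part of depth was not tested.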

How the results depend on the processing

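The log2 fold changes of mt-Cytb, mt-Atp6, mt-Atp8 and mt-Co2 stayed positive under every alternative run on all 8 libraries and with 1 library left out of the fit to all rows. The sign turned for 2 genes: mt-Co1 was at -0.0097 with library totals and -0.21 with mitochondrial rows alone, and mt-Co3 at -0.044 with mitochondrial rows alone. mt-Co2 was at 0.56 with mitochondrial rows alone and ran from 0.72 to 1.34 when 1 library was left out, passing without Sost-/- replicate 1. Without Sost-/- replicate 1 and SostPB/- replicate 2, the 2 deepest libraries, an alternative chosen after seeing the data, it was at 1.31 (edgeR adjusted p = 0.176). Over all rows the count past an adjusted p of 0.05 was 0, against 53 in DESeq2, 1 in limma-voom, 2 with no filter on low counts, 3 without those 2 libraries and 0 to 4 with 1 library left out. The difference in the share of the 6 in mitochondrial counts was -2.36 percentage points with mRNA rows as denominator and ran from -2.17 (without Sost-/- replicate 1) to -0.570 (without Sost-/- replicate 4) with 1 library left out. In all counts it ran from 3.07 to 5.07 in those fits, reaching p = 0.0286 (exact) without Sost-/- replicate 1. That of mt-Atp8 in mitochondrial counts was -0.0415 with mRNA rows as denominator and -0.164 to 0.141 with 1 library left out. The log2 ratio of mt-Atp6 over mt-Atp8 differed by -0.014 to 0.073 between the groups. Counting the row named Col19a1 with a member, with the 6 or in the denominator of the shares was also chosen after seeing the data. It turned no sign and made no call. None of those results had a call to end, and the fit to mitochondrial rows alone was not rerun with that row. In the fit to mitochondrial rows alone, leaving out libraries, an alternative added after seeing the data, gave -0.27 to -0.17 for mt-Co1, 0.44 to 0.78 for mt-Co2 and -0.067 to 0.055 for mt-Atp8. The cause of these changes was not tested.

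The labels do not say whether the replicate numbers pair the libraries. Deviations of same-numbered libraries correlated at -0.0382, -0.0129, -0.0338 and 0.0405, and not every library was closest to its own number. These values show no sign of pairing but cannot exclude a shared litter or day. With the replicate block 0 rows passed, as without it, and mt-Co2 was at 1.01 and mt-Co1 at 0.18.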
